A study of Papio anubis and Macaca mulatta with 6 samples.

Results

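A group of 10 genes of the anti-Müllerian hormone and inhibin/activin system were followed across the cell types of the immature testis of 2 olive baboons (Papio anubis) and 2 rhesus monkeys (Macaca mulatta). They were the ligand genes AMH, INHA, INHBA and INHBB, the receptor genes AMHR2, ACVR1, ACVR1B, ACVR2A and ACVR2B, and the antagonist gene FST. They were taken by symbol, and all 10 were among the 34178 genes listed for the baboon and the 21356 listed for the rhesus monkey. Each species was analysed alone, over 23034 baboon and 26469 rhesus cells.

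Anti-Müllerian hormone (AMH) is a hormone of the TGF-β family that immature Sertoli cells secrete, and it is a standard marker of the prepubertal testis. It binds the type II receptor AMHR2, which works with type I receptors that include ACVR1. Inhibin is a dimer of the alpha subunit (INHA) with a beta subunit (INHBA in inhibin A, INHBB in inhibin B), and inhibin B from Sertoli cells lowers the secretion of follicle-stimulating hormone by the pituitary. Dimers of beta subunits alone are activins, which bind the type II receptors ACVR2A and ACVR2B and then the type I receptor ACVR1B, while follistatin (FST) binds activin and blocks it.

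In the rhesus genome (Mmul_10), RefSeq places AMH at chr19:2095891-2099223 on the plus strand and INHA at chr12:107003332-107006615 on the plus strand. In the baboon (Panubis1.0), AMH lies at chr20:49338805-49341671 and INHA at chr10:103386041-103390161. The 250 bases before the annotated rhesus start of both genes are shown because the results in Sertoli-like cells turn on these 2 ligand genes. The windows are chr19:2095641-2095890 for AMH and chr12:107003082-107003331 for INHA, both on the plus strand, in RefSeq sequence of Mmul_10. Capitals mark a match to one of 4 motifs, which were searched on both strands and do not overlap each other in these windows. The SOX core was spelled AACAAT. The half-site that many nuclear receptors bind was spelled AGGTCA. The core of GATA factor sites was spelled AGATAA. The cAMP response element was spelled TGACGTCA.
AMH: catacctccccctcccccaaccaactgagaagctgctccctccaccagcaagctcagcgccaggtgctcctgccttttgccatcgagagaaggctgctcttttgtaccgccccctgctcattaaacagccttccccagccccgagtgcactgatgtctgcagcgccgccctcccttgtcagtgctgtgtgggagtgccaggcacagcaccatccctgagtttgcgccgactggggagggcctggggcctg
INHA: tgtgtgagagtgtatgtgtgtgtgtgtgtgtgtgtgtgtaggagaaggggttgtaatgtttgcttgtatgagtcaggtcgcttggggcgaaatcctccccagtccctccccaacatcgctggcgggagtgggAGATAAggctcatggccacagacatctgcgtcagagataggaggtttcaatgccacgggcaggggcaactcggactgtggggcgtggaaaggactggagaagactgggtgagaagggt
The AMH window held none of the 4 motifs. The INHA window held the GATA core, from 118 to 113 bases before the start, and the same motif was in 8.4% of 20782 promoters of that length. The window of AMHR2 held the nuclear receptor half-site, from 201 to 196 bases before the start, against 12.9% of all promoters, and the window of INHBB held none of the 4 motifs. The SOX core was in 7.82% and the cAMP response element in 1.47% of all promoters. A match of letters is a description of the window and does not show that a factor binds there. Each motif was searched only in the exact spelling given and only before the RefSeq start, and other gene models may start elsewhere. A window without a match therefore does not show that the promoter lacks such sites.

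The animals were untreated, and their testes were obtained at necropsy. The tissue was digested with collagenase, washed to remove interstitial cells and digested with trypsin, so the share of each cell type is set in part by the preparation. The sources used here assign the animals' ages to the species in different ways and give none for a single animal, so age entered no comparison. The authors' paper lists the baboons as a newborn and an older animal, and the rhesus monkeys as closer in age. Age and animal cannot be told apart in either species. Baboon 1 (libraries 1A and 1B) and rhesus 2 (libraries 2A and 2B) had 2 libraries each, and the other 2 animals had 1. The droplet chemistry (10x Genomics 3′) was version 3 for baboon 2 and version 2 for the other animals, so chemistry and animal cannot be told apart in the baboon. The 6 libraries held 16875294 to 49803025 unique molecular identifiers (UMIs, each standing for 1 captured RNA molecule) and 5544 to 11169 cells, with a median of 1445 to 2742 UMIs per cell. Pairs of libraries of one species shared 1 to 123 cell barcodes.

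Cells were clustered without the 10 genes, and clusters were named "-like" from fixed marker lists that hold none of them, although other genes of the same cells defined the classes. In the baboon, 15653 cells were Sertoli-like, 4693 stroma-like and 302 germ-like, and contractile-like, endothelial-like and macrophage-like cells made up the other tested classes. In the rhesus monkey, 8007 cells were Sertoli-like, 13250 stroma-like and 634 germ-like, and a Leydig-like class was tested as well. The baboon macrophage-like cluster was led by CD69 and CD52 as well as by macrophage markers such as C1QC and C1QB. The authors' paper reported macrophages in the rhesus monkey and none in the baboon. Clusters without a name held 1724 baboon and 2880 rhesus cells and were not tested, nor were rhesus epithelial-like cells (4 in animal 1 and 54 in animal 2) and glia-like cells (10, all in animal 2). Statements on other classes, on ranges and on overlap below cover the 6 baboon and 7 rhesus classes tested. UMIs were summed per animal and class, levels are given as CPM (the UMIs of a gene scaled to a common total of the sum), and n was 2 animals in every class. These 3′ counts are not per gene length, so levels are compared between classes and not between genes.

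All 10 genes passed the filter on low counts in both species. A difference between any of the cell classes was called for 6 baboon members (AMH, AMHR2, INHA, INHBA, INHBB and FST), where 49.1% of all genes tested were called. It was called for 7 rhesus members, the same 6 and ACVR1, where 46.9% of all genes were called. The 6 and 7 of 10 members called stand against those shares. With the animal as a block, ACVR1, ACVR1B and ACVR2A were also called in the baboon, with adjusted p-values of 0.0233, 0.0218 and 0.0095. That fit also called a larger share of all baboon genes than 49.1%, so the added calls are not particular to the members.

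Among the tested classes, Sertoli-like cells held the highest level of AMH, AMHR2, INHA and INHBB in all 4 animals. In each species these were the 4 members called higher in Sertoli-like cells than in the mean of the other classes, and no member was called lower. Over all genes, 8.19% were called higher and 6.88% lower in baboon Sertoli-like cells, and 7.8% higher and 3.63% lower in rhesus Sertoli-like cells. The median log2 difference of the 10 members was 0.50 in the baboon, beside 0.06 over all genes, and 0.86 in the rhesus monkey, beside 0.14.

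AMH stood at 6929 CPM in the Sertoli-like cells of baboon 1 and at 7717 CPM in those of baboon 2. Its levels in the other tested baboon classes ran from 596 CPM in the endothelial-like cells of baboon 1 to 2248 CPM in the germ-like cells of baboon 2. The Sertoli-like values lay above all other tested classes without overlap, and the 2 libraries of baboon 1 (6924 and 6937 CPM) lay closer together than the 2 animals. The log2 difference from the mean of the other classes was 2.49 ± 0.34 (SE, adjusted p = 0.00104, edgeR's quasi-likelihood test). Rhesus AMH stood at 6356 CPM in the Sertoli-like cells of animal 1 and at 7202 CPM in those of animal 2, where libraries 2A and 2B had 7117 and 7291 CPM. The other tested rhesus classes held from 87.0 CPM, in the Leydig-like cells of animal 2, to 1564 CPM, in the macrophage-like cells of animal 1. These tested classes again did not overlap, and the log2 difference was 3.70 ± 0.50 (adjusted p = 0.000371). Against all other cells pooled, the baboon difference in AMH was 1.26 (adjusted p = 0.0581) and that in INHA 0.98 (adjusted p = 0.171). Over all genes, that contrast called 48 of 17234 higher, beside 1020 of 12449 in the main fit. The pooled baboon cells include an unnamed cluster with KRT19 among its leading genes. The Sertoli list scored highest there (0.772, with 7 markers detected), above the 0.643 of the Sertoli-like cluster 4. The cluster stayed unnamed because another list had more markers among its top genes. In that unnamed cluster, AMH stood at 5497 and 8067 CPM and INHA at 744 and 519 CPM in baboons 1 and 2, so that AMH in baboon 2 and INHA in both animals exceeded the Sertoli-like level. In the untested rhesus epithelial-like cells, AMH stood at 9701 CPM in animal 1, on 60 UMIs from 4 cells, and at 61.7 CPM in animal 2, on 7 UMIs from 54 cells. With animal 2 alone (without rhesus 1), the rhesus difference was 4.89, a value with no test.

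INHA, the alpha subunit shared by both inhibins, stood at 675 and 454 CPM in the Sertoli-like cells of baboons 1 and 2. The other tested baboon classes held 53.3 to 196 CPM, the highest in the macrophage-like cells of baboon 1. Baboon 1 was the higher of the pair in Sertoli-like cells, and both lay above every other tested class. In rhesus Sertoli-like cells INHA stood at 1992 and 1842 CPM in animals 1 and 2, against 52.7 to 566 CPM in the other tested classes (1455 and 150 CPM in epithelial-like cells, on 9 and 17 UMIs). The log2 difference was 2.30 ± 0.32 in the baboon (adjusted p = 0.00111) and 3.17 ± 0.49 in the rhesus monkey (adjusted p = 0.000991).

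INHBB, the beta subunit of inhibin B, stood at 197 and 182 CPM in baboon Sertoli-like cells, and at 12.7 to 73.1 CPM in the other tested classes. The unnamed baboon cluster held 564 and 922 INHBB UMIs in baboons 1 and 2. Its INHA UMIs per INHBB UMI were 4.15 and 3.13, beside 3.43 and 2.49 in Sertoli-like cells. With the INHA levels of that cluster given above, its INHBB level lay near the Sertoli-like one and above the other tested classes. In rhesus Sertoli-like cells it stood at 127 and 91.9 CPM, and in the other tested classes it reached no more than 20.0 CPM, in the germ-like cells of animal 1. Rhesus epithelial-like cells held 162 and 52.9 CPM, on 1 and 6 UMIs. No tested class overlapped the Sertoli-like class in either species. The log2 difference was 2.20 ± 0.35 in the baboon (adjusted p = 0.00198) and 3.87 ± 0.55 in the rhesus monkey (adjusted p = 0.000571). Without rhesus 1 the rhesus value was 5.47 with no test, and without library 2A it was 4.82 (adjusted p = 0.000566).

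AMHR2, the type II receptor of AMH, stood at 216 and 200 CPM in baboon Sertoli-like cells and at 16.5 to 59.3 CPM in the other tested classes. The unnamed baboon cluster held 661 and 1144 AMHR2 UMIs in baboons 1 and 2. Its AMH UMIs per AMHR2 UMI were 26.2 and 39.2, beside 32.1 and 38.5 in Sertoli-like cells. With the AMH levels of that cluster given above, its AMHR2 level lay near the Sertoli-like one and above the other tested classes. The untested rhesus epithelial-like cells held 0 and 5 AMHR2 UMIs in animals 1 and 2. Among rhesus cells it stood at 150 and 115 CPM in Sertoli-like cells and at no more than 27.7 CPM in the other tested classes, with no UMI in the contractile-like cells of animal 2. The 2 libraries of rhesus 2 differed by less than 1 CPM. The log2 difference was 2.34 ± 0.38 in the baboon (adjusted p = 0.00203) and 3.13 ± 0.37 in the rhesus monkey (adjusted p = 0.000151), and without rhesus 1 the latter was 3.84 with no test.

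**Figure D1:**
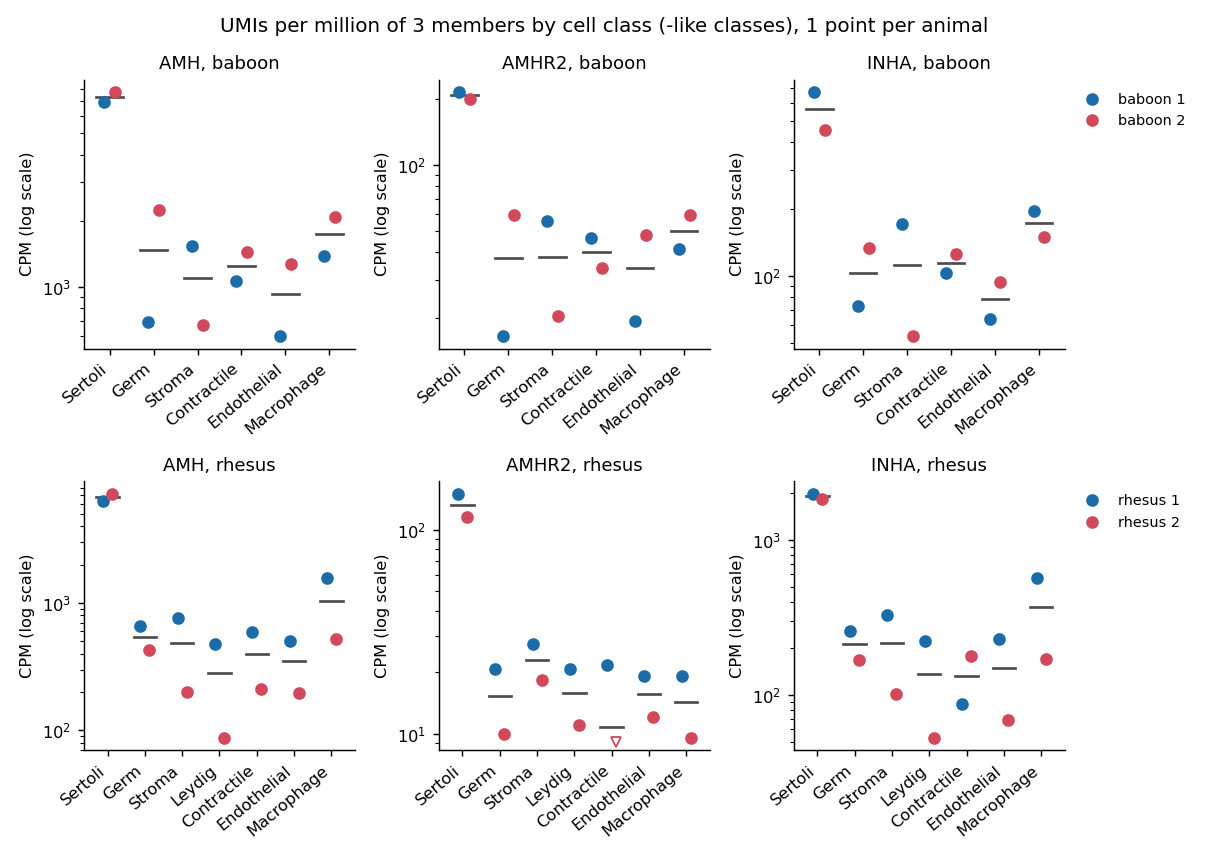
AMH, AMHR2 and INHA by cell class, as CPM on a log axis, with 1 point per animal, a bar at the mean of 2 animals, and an open triangle at the foot of the axis for a class with no UMI. The Sertoli-like points of each gene lie above those of all other tested classes in both species.

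The share of cells with a UMI was taken after every cell had been thinned to 1000 UMIs, beside the share in a class that should lack the gene. AMH was found in 97.2% and 93.6% of the thinned Sertoli-like cells of baboons 1 and 2 (98.8% and 93.4% before thinning) and in 98.0% of those of each rhesus monkey. Endothelial-like cells, which are not known to make AMH, held it in 27.0% (exact 95% interval 20.1 to 34.8) and 28.8% of thinned cells in the baboon, and in 32.5% and 14.6% in the rhesus monkey. Median depths before thinning were 1938 and 3936 UMIs in baboon Sertoli-like and 2481 and 2811 in baboon endothelial-like cells. INHA was found in 47.0% and 32.9% of thinned baboon Sertoli-like cells, beside 4.61% and 3.27% of endothelial-like cells, and in 83.5% and 79.6% of thinned rhesus Sertoli-like cells, beside 19.8% and 7.2%. AMHR2 was found in 18.9% and 16.6% of thinned baboon and 11.9% and 11.4% of thinned rhesus Sertoli-like cells. The intervals cover counting error only.

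RNA outside cells accompanied these values. In barcodes ranked far below the cells, AMH stood at 5301, 4148 and 9873 CPM in the 3 baboon libraries 1A, 1B and 2, and at 2179, 1703 and 1808 CPM in the 3 rhesus libraries 1, 2A and 2B. The free RNA of baboon 2 thus held a higher AMH level than the Sertoli-like cells of that animal (7717 CPM), while in the other 3 animals it was lower. The ratio of AMH to INHA UMIs was set beside that of the free RNA in each class. In baboon 1, AMH UMIs per INHA UMI were 10.3 in Sertoli-like cells and 7.05 to 10.4 in the 5 other classes, and 8.17 and 8.23 in the free RNA of its libraries. In baboon 2 the ratio was 17.0 in Sertoli-like cells, 11.5 to 16.9 in the other classes and 18.9 in free RNA. In rhesus 1 it was 3.19 in Sertoli-like cells, 2.15 to 6.75 in the 6 other classes and 1.77 in free RNA, and in rhesus 2 it was 3.91, 1.19 to 3.06, and 1.76 and 1.82. The 6.75 of rhesus 1 came from contractile-like cells, on 27 AMH and 4 INHA UMIs (interval 2.35 to 26.5). The next highest of its other classes was macrophage-like, at 2.76. The Sertoli-like value lay within the counting interval of 4 of the 5 other classes in baboon 1, 3 of 5 in baboon 2, 2 of 6 in rhesus 1 and 1 of 6 in rhesus 2. The 8 Sertoli markers also had a summed level of 88.8 to 307 CPM in the other tested baboon classes and of 129 to 367 CPM in the rhesus ones, against 688 and 815 and 1097 and 3640 CPM in Sertoli-like cells. The part of free RNA in the levels of AMH, INHA, INHBB and AMHR2 outside Sertoli-like cells was not tested. In baboon stroma-like cells these levels also moved with the cells marked as doublets. Leaving such cells out took AMH from 1535 to 447 CPM in baboon 1 and from 671 to 432 CPM in baboon 2, and INHBB in the same order from 47.0 to 10.9 CPM and from 12.7 to 7.87 CPM. Without them AMH, AMHR2, INHA and INHBB were called lower in baboon stroma-like cells than in the mean of the other classes, by log2 differences of -1.60, -1.21, -1.08 and -2.40 (adjusted p of 0.0105, 0.0413, 0.0411 and 0.000916), beside -0.61, -0.46, -0.35 and -0.86 with them, none of which was called. Over all genes, 663 of 11971 were called lower in baboon stroma-like cells with marked doublets left out, beside 349 of 12449 in the main fit. The doublet scores were computed from all genes, the members included, so these calls of members are not independent of the marking.

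**Figure D2:**
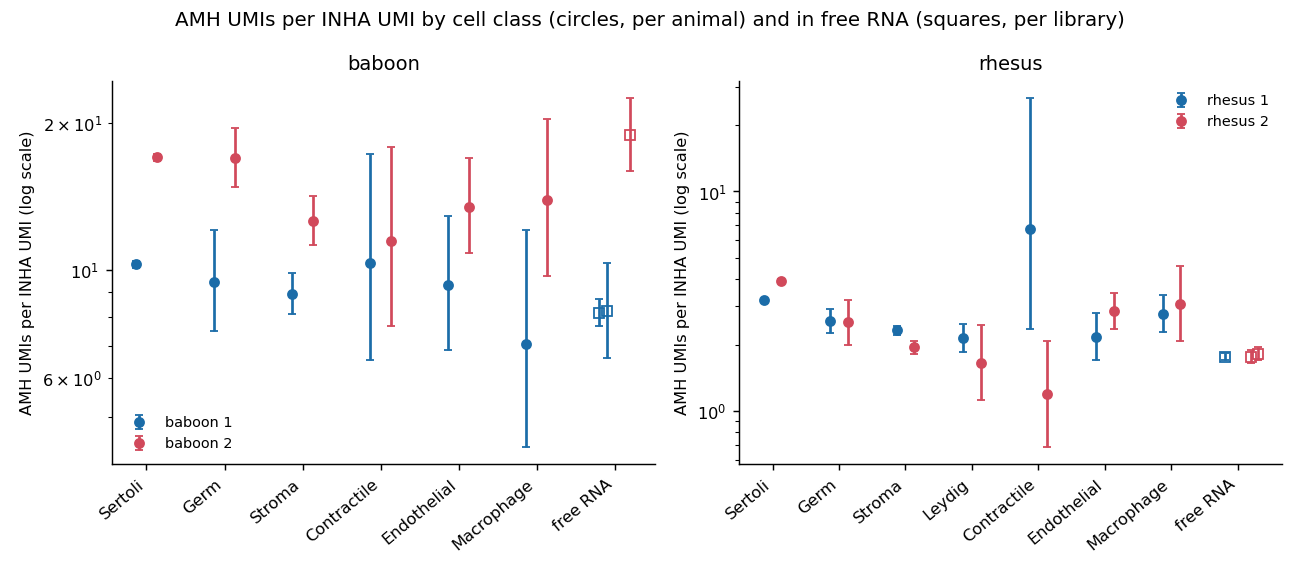
AMH UMIs per INHA UMI on a log axis, by cell class (circles, 1 per animal) and in free RNA (squares, 1 per library), with exact 95% counting intervals. In baboon 1 the classes lie between 7.05 and 10.4 and in rhesus 1 between 2.15 and 6.75, where 6.75 is the contractile-like class on 4 INHA UMIs.

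Within the Sertoli-like class, the rhesus cells fell into 2 clusters that differed little in AMH and more in INHBB and the activin receptors. Cluster 1 was led by PCP4, FABP3, FATE1 and BEX1 among others, and cluster 3 by SOX9, MYO6 and HK2. AMH stood at 6164 and 6686 CPM in cluster 1 and at 6572 and 7490 CPM in cluster 3 (animals 1 and 2), and INHA at 2186 and 2078 against 1773 and 1710 CPM. INHBB stood at 31.2 and 41.1 CPM in cluster 1 and at 234 and 120 CPM in cluster 3, which is 7.52-fold higher in animal 1 and 2.92-fold in animal 2. ACVR1B was 4.39- and 1.98-fold higher and ACVR2A 3.52- and 4.28-fold higher in cluster 3, on 9 and 6 UMIs of ACVR2A in cluster 1. ACVR2B had 5 and 2 UMIs in cluster 1 against 44 and 41 in cluster 3. Cluster 3 cells were also deeper, with a median of 2043 UMIs beside 1453 in cluster 1, and the part of depth was not tested. The clusters were drawn from the same cells, so these values carry no test.

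The baboon Sertoli-like class comprised 5 clusters, of which cluster 4 stood apart in baboon 1. Ribosomal protein genes such as RPL31 and RPS20 led cluster 4. In baboon 1, AMH stood at 3736 CPM there and at 6658 to 8630 CPM in the other 4 clusters, and INHBB at 50.4 against 172 to 270 CPM. In baboon 2, AMH in the same cluster stood at 8568 CPM and INHBB at 133 CPM, and the cells were 324 beside 2574 in baboon 1. The lower AMH level of cluster 4 was seen in 1 of the 2 animals, while its INHBB level was the lowest of the 5 clusters in both. Baboon 1 had most of its Sertoli-like cells in clusters 0, 3, 4 and 1, and baboon 2 in clusters 1 and 0.

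**Figure D3:**
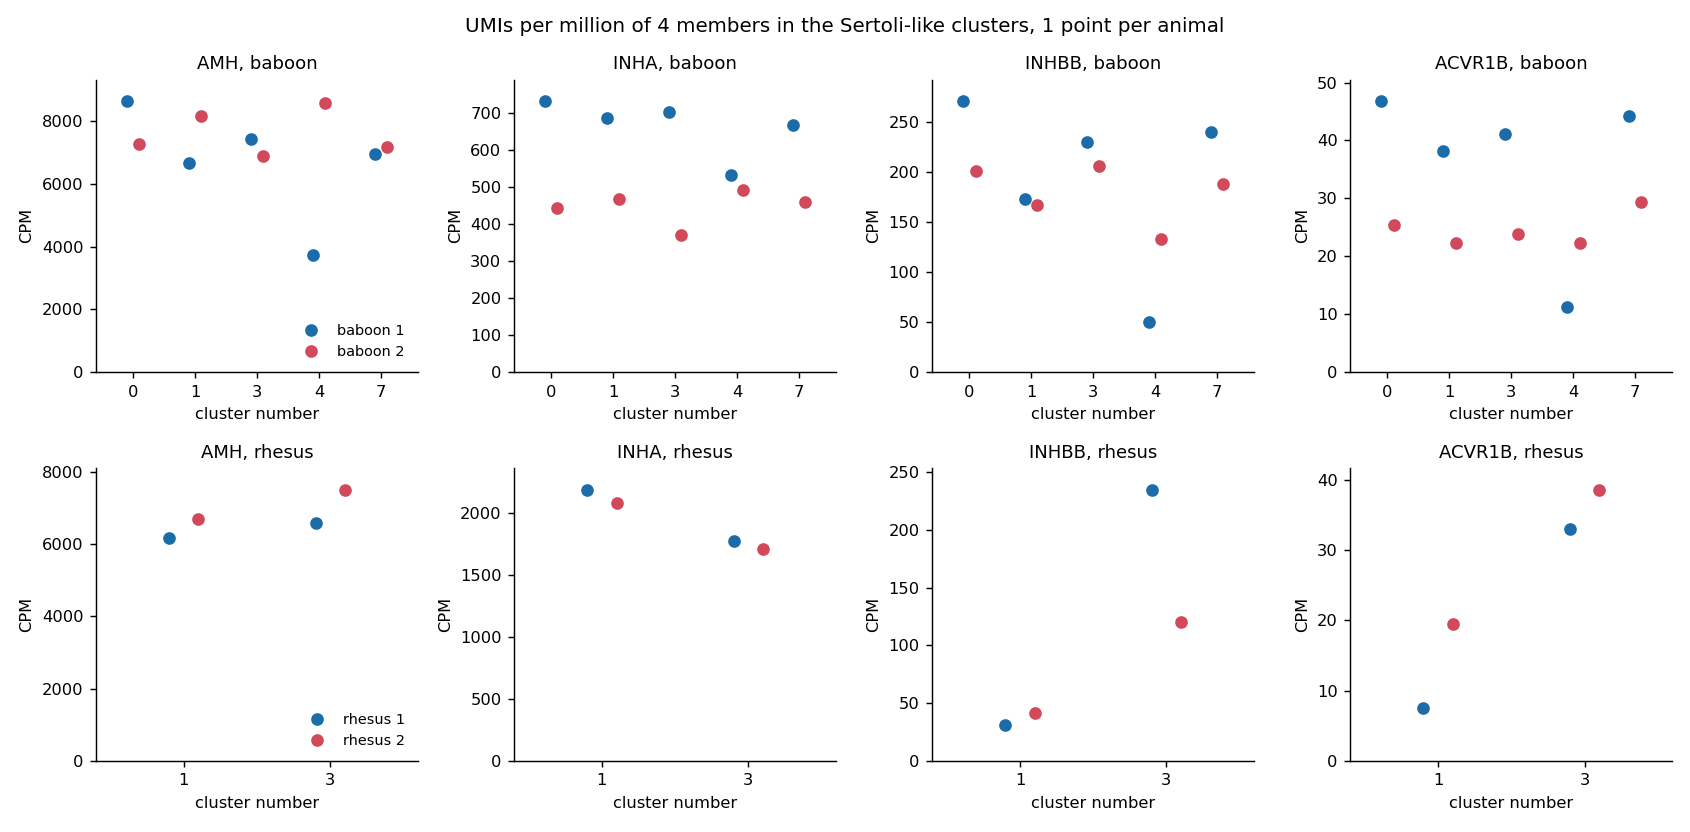
AMH, INHA, INHBB and ACVR1B in the Sertoli-like clusters, as CPM with 1 point per animal and the cluster number on the horizontal axis. In the rhesus monkey, INHBB stands at 31.2 and 41.1 CPM in cluster 1 and at 234 and 120 CPM in cluster 3.

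INHBA, the beta subunit of inhibin A and activin A, differed from the other ligand genes in that its highest mean level among the tested classes was in stroma-like cells. It was called higher there than in the mean of the other classes in both species, as the only member in the baboon and with ACVR1 in the rhesus monkey. Over all genes, 8.5% were called higher in baboon and 5.4% in rhesus stroma-like cells (2.8% and 1.18% lower). The median log2 difference of the members was -0.08 for the baboon and 0.07 for the rhesus monkey, beside 0.10 and 0.15 over all genes.

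INHBA stood at 330 and 374 CPM in the stroma-like cells of baboons 1 and 2, with 330 and 331 CPM in libraries 1A and 1B. The next class in order was the contractile-like class, at 30.9 and 38.6 CPM on 6 and 8 UMIs, and Sertoli-like cells held 7.06 and 24.0 CPM. Stroma-like cells lay above all other classes without overlap, and the log2 difference was 4.55 ± 0.37 (adjusted p = 2.9e-05). Rhesus INHBA stood at 153 and 54.2 CPM in stroma-like cells, with 57.6 and 50.5 CPM in libraries 2A and 2B. Contractile-like cells held 43.5 and 61.7 CPM on 2 and 9 UMIs, so that in animal 2 they stood above the stroma-like cells. The other tested classes held at most 10.4 CPM. The unnamed rhesus clusters are not part of this comparison, and the stroma list scored highest in the largest of them (cluster 4, 0.757). The log2 difference was 3.81 ± 0.50 (adjusted p = 0.000422), and against all other cells pooled it was 3.44 (adjusted p = 0.121). That pooled contrast called 0 of 12818 genes. Without baboon 2 the baboon value was 5.47, and without rhesus 1 the rhesus value was 4.42, both with no test. Calling cells by the UMI cutoff alone gave a mean of 229 CPM in baboon stroma-like cells, beside 352 CPM.

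After thinning, INHBA was found in 24.7% and 29.0% of baboon and 13.8% and 5.49% of rhesus stroma-like cells, and in no more than 0.794% of the endothelial-like cells of any animal. Its level differed between the 2 baboon stroma-like clusters. Cluster 2, with IGFBP3, C7, DCN and COL1A1 among its leading genes, held 388 and 454 CPM, and cluster 6, with DLK1 and COL15A1 among them, held 153 and 199 CPM. In baboon Sertoli-like cells the log2 difference of INHBA was -1.08 (adjusted p = 0.162), and with the animal as a block it was -1.14 (adjusted p = 0.00688). The stroma marker list had a summed level of 341.6 CPM in the Sertoli-like cells of baboon 2 and of 49.0 CPM in those of baboon 1, in which INHBA was also lower, and its part in the INHBA level was not tested. Among thinned Sertoli-like cells of baboon 2, INHBA was found in 1.48% of those with an INHA UMI and in 6.22% of those without one.

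ACVR1, a type I receptor used by AMH, had its highest mean among the tested classes in stroma-like cells in both species, and the unnamed clusters are not part of that ranking. ACVR1 stood at 36.9 and 86.8 CPM in rhesus stroma-like cells, with 84.1 and 89.7 CPM in libraries 2A and 2B, and at 7.65 to 46.5 CPM in the other classes. The stroma-like and endothelial-like ranges overlapped, since the endothelial-like cells of animal 2 held 46.5 CPM. The log2 difference was 1.79 ± 0.33 (adjusted p = 0.00454). It was 1.32 against all other cells pooled (adjusted p = 0.175), where 0 of 12818 genes were called, and 3.37 without rhesus 1, with no test. In the baboon, ACVR1 stood at 32.7 and 21.2 CPM in stroma-like cells and at up to 29.5 CPM in endothelial-like cells. These baboon ranges overlapped, with means of 27.0 and 26.6 CPM, and in baboon 2 the endothelial-like level was the higher. The difference of 0.96 had an adjusted p of 0.202, and 0.0373 with the animal as a block.

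**Figure D4:**
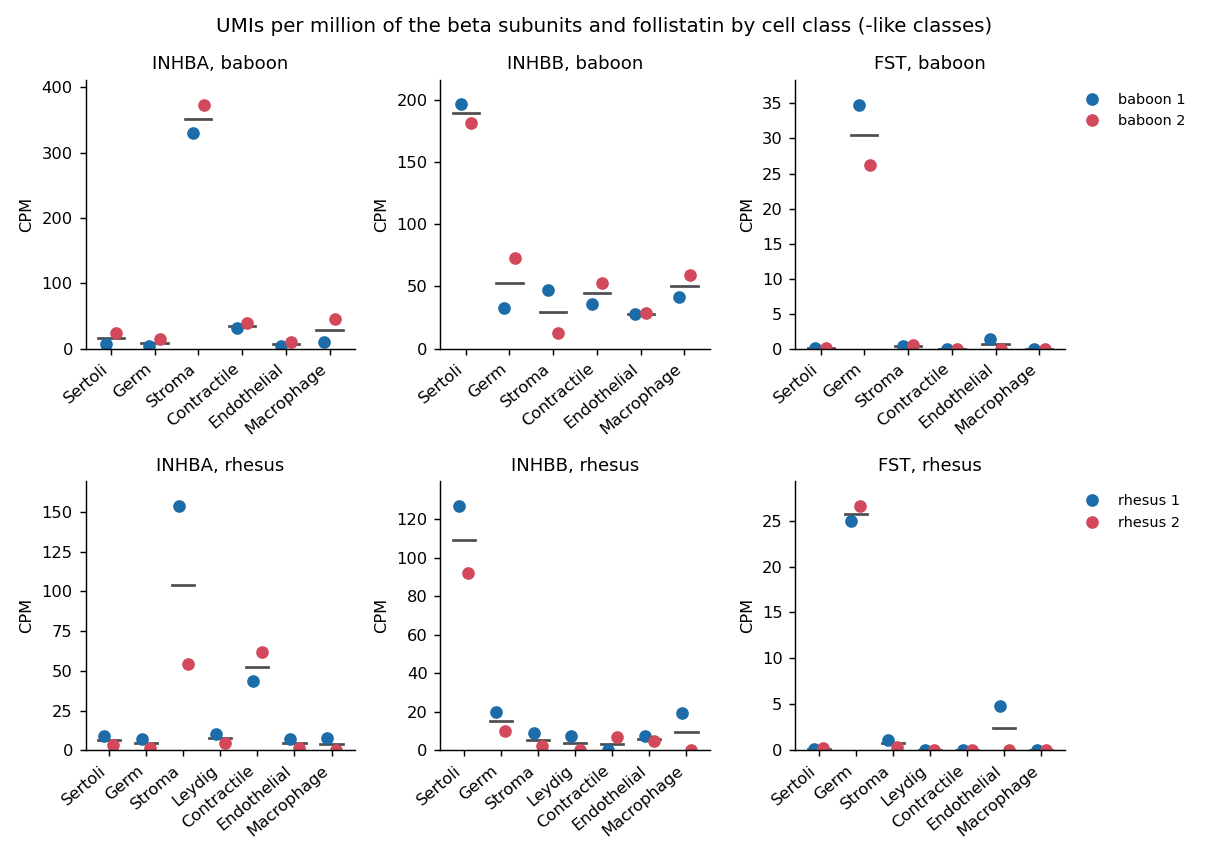
INHBA, INHBB and FST by cell class, as CPM on a linear axis, with 1 point per animal and a bar at the mean of 2 animals. By the mean, INHBA is highest in stroma-like cells, INHBB in Sertoli-like cells and FST in germ-like cells. For INHBA the contractile-like cells of rhesus 2 stand above its stroma-like cells.

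Among the tested classes, germ-like cells held the highest level of FST, ACVR2A, ACVR2B and ACVR1B in both species by the mean of the animals. In the baboon, FST, ACVR2A and ACVR2B were called higher and INHBA lower than in the mean of the other classes, and 23.9% of all genes were called higher and 9.73% lower. In the rhesus monkey, FST and ACVR2A were called higher, and 23.9% of all genes were called higher and 10.9% lower. The shares of the members called, 3 of 10 and 2 of 10, lay near that background. The median log2 difference of the members was -0.22 for the baboon and 0.02 for the rhesus monkey, beside 0.24 and 0.23 over all genes.

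FST, the gene for the activin-binding protein follistatin, had most of its UMIs in germ-like cells of every animal. Germ-like cells of baboon 1 held 38 of its 43 UMIs and those of baboon 2 held 43 of 47, although they were 0.953% and 2.0% of the cells. Germ-like cells of rhesus 1 held 35 of 48 UMIs and those of rhesus 2 held 16 of 25, at 4.82% and 0.627% of the cells. The levels were 34.8 and 26.2 CPM in the baboon and 25.0 and 26.5 CPM in the rhesus monkey, and the ratio to all other cells of the animal was 242 (95% counting interval 95.2 to 789), 274 (99.7 to 1052), 39.5 (20.4 to 81.4) and 77.5 (32.3 to 199). Rhesus libraries 2A and 2B had 8.7 and 50.4 CPM on 3 and 13 UMIs, so the rhesus 2 level rests mostly on library 2B. FST was called higher in germ-like cells with adjusted p-values of 5.1e-05 and 0.000706, and its fitted log2 values depend on the prior count since several classes held 0 UMIs. Thinned germ-like cells held a UMI in 5.65%, 1.44%, 0.89% and 1.75% of cells (baboon 1, baboon 2, rhesus 1, rhesus 2), and thinned Sertoli-like cells in at most 0.0594%. Unthinned, with a median of 5980 and 7037 UMIs in the baboon and 1363 and 1788 in the rhesus monkey, the shares of germ-like cells were 20.8%, 15.8%, 4.83% and 10.4%. Without rhesus 2B, FST did not pass the filter in the rhesus fit.

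ACVR2A, a type II activin receptor, stood at 49.5 and 33.5 CPM in baboon germ-like cells, with 54.8 and 39.5 CPM in libraries 1A and 1B, and at 9.12 to 28.9 CPM in the other classes. In the rhesus monkey it stood at 20.7 and 18.2 CPM in germ-like cells on 29 and 11 UMIs, and at no more than 8.84 CPM elsewhere. Both germ-like pairs lay above the other classes. The log2 difference was 1.20 ± 0.37 in the baboon (adjusted p = 0.0243) and 1.92 ± 0.57 in the rhesus monkey (adjusted p = 0.0187). The baboon call was lost without library 1A (0.89, adjusted p = 0.141) and against all other cells pooled (0.95, adjusted p = 0.109), and the rhesus call was lost without library 2B (1.67, adjusted p = 0.065) and against all other cells pooled (1.45, adjusted p = 0.0545). Over all genes, the pooled contrast called 2752 of 17414 higher in baboon and 1932 of 13159 in rhesus germ-like cells. The main fit called 2970 of 12449 and 2453 of 10284.

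ACVR2B, the other type II receptor, stood at 43.1 and 54.9 CPM in baboon germ-like cells and at no more than 30.3 CPM elsewhere, and the difference was 1.13 ± 0.39 (adjusted p = 0.0444). It lost its call without library 1A (0.86, adjusted p = 0.133) and against all other cells pooled (0.32, adjusted p = 0.495), and without baboon 2 it was 2.63 with no test. Rhesus germ-like cells held 7.13 and 14.9 CPM of ACVR2B, and the endothelial-like cells of animal 2 held 10.7 CPM. Its rhesus difference was 2.01 ± 0.88 (adjusted p = 0.0969). ACVR1B, the type I activin receptor, stood at 51.3 and 31.7 CPM in baboon and 20.0 and 48.1 CPM in rhesus germ-like cells, and the ranges overlapped those of Sertoli-like cells (36.8 and 23.9, and 19.5 and 31.7 CPM). The difference of 0.91 in the baboon had an adjusted p of 0.113, and 0.0158 with the animal as a block, while the rhesus difference of 1.02 had an adjusted p of 0.105.

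INHBA stood at 3.67 and 14.6 CPM in baboon germ-like cells, on 4 and 24 UMIs. Endothelial-like cells held 4.18 to 9.83 CPM, Sertoli-like cells 7.06 to 24.0 CPM and stroma-like cells 330 to 374 CPM. Germ-like cells were therefore not the lowest class by the mean (9.15 CPM beside 7.00 CPM in endothelial-like cells), and these low ranges overlapped. The log2 difference of -2.04 ± 0.56 from the mean of the other classes was called in the baboon (adjusted p = 0.0148), was -1.70 without library 1A (adjusted p = 0.0885) and was -2.96 without baboon 2, with no test. The call was also lost with cells called by the UMI cutoff alone. In the rhesus monkey the value was -1.46 (adjusted p = 0.203), and -1.73 with the animal as a block (adjusted p = 0.0164). Without library 1A, FST was the 1 member still called in baboon germ-like cells.

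**Figure D5:**
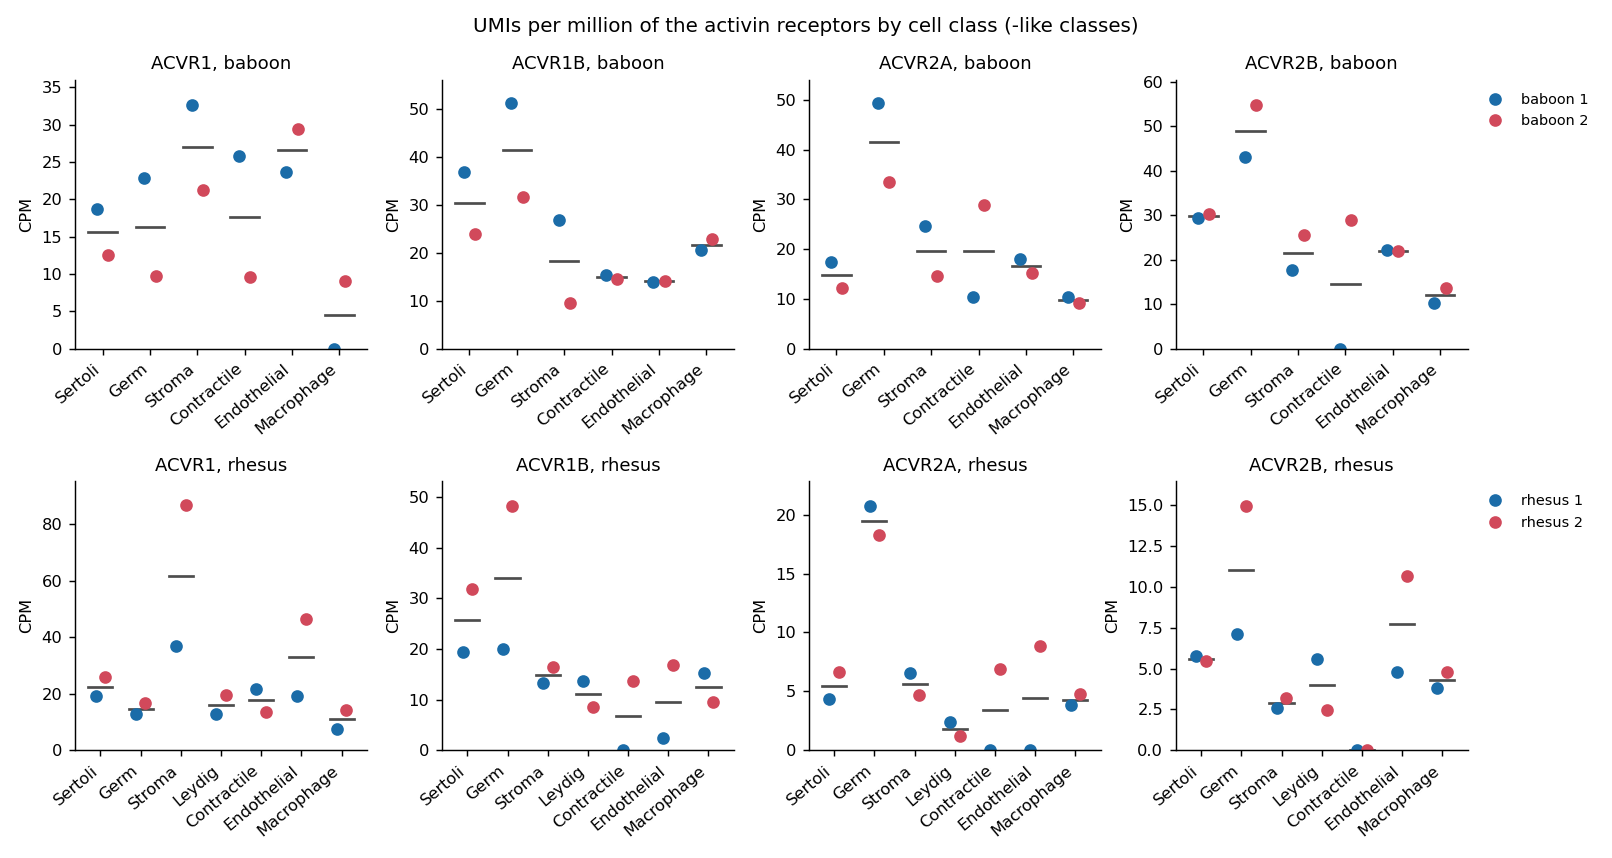
ACVR1, ACVR1B, ACVR2A and ACVR2B by cell class, as CPM on a linear axis, with 1 point per animal and a bar at the mean of 2 animals. ACVR2A is highest in germ-like cells. The ranges of ACVR1 in stroma-like and endothelial-like cells overlap in both species, and those of ACVR2B in germ-like and endothelial-like cells overlap in the rhesus monkey.

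Other genes of the pathway were taken as a list of 32, of which 26 were tested for the baboon and 20 for the rhesus monkey. In baboon Sertoli-like cells 2 were called higher and 6 lower, and in rhesus Sertoli-like cells 2 higher and 4 lower. Over all genes the shares called higher and lower were 8.19% and 6.88% in the baboon and 7.8% and 3.63% in the rhesus monkey. BMPR1B, a type I receptor for bone morphogenetic proteins, was higher by 3.64 and 3.93 (log2, baboon and rhesus), and TGIF1, a repressor of SMAD-driven transcription, by 1.28 and 1.70. TGFBR2 and TGFBR3, receptors of TGF-β, fell by 5.45 and 2.31 in the baboon, where ACVRL1, a receptor known from endothelium, fell by 4.31 and SMAD9 by 2.61. TGFBR2, ACVRL1, TGFBR3 and HTRA3 fell by 2.90, 2.66, 2.51 and 1.39 in rhesus Sertoli-like cells. In germ-like cells, 7 were called higher and 3 lower in the baboon, and 1 higher and 3 lower in the rhesus monkey. The 7 of 26 baboon genes called higher lay near the share over all genes (23.9%), and the 1 of 20 rhesus genes lay below it (23.9%). The shares called lower over all genes were 9.73% in baboon and 10.9% in rhesus germ-like cells. BMPR1B was higher there by 4.30 and 4.53, and in the baboon SMAD6, an inhibitory SMAD, was higher by 4.17, SMAD9 by 2.36 and PMEPA1 by 2.13. HTRA3, TGFBR2 and TGFBR3 fell by 2.84, 2.27 and 2.27 in baboon germ-like cells, and TGFBR3, HTRA3 and TGFBR2 fell by 2.64, 2.49 and 2.32 in rhesus germ-like cells. In stroma-like cells 3 of 26 were called higher for the baboon and 2 of 20 for the rhesus monkey, beside 8.5% and 5.4% over all genes. The median log2 difference of the list in Sertoli-like cells was 0.01 for the baboon and -0.17 for the rhesus monkey, beside 0.06 and 0.14 over all genes. In germ-like cells it was 0.17 and -0.10, beside 0.24 and 0.23, and in stroma-like cells 0.03 and 0.73, beside 0.10 and 0.15.

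The genes whose pattern over the sums per animal and class was most like that of each member were ranked by Pearson's r of log2(CPM + 10). The sums of 1 animal share libraries, so r is a description. Over the 12 baboon sums, PMEL (0.985), AMHR2 (0.977) and PSD4 (0.968) came closest to AMH, and PHF24 (0.974) and ERBB3 (0.971) to INHA. Over the 14 rhesus sums, LYNX1-SLURP2 (0.961), GNG7 (0.958) and INHA (0.951) came closest to AMH, and TF (0.969) was among those closest to INHA. LYNX1-SLURP2 (0.951) also came first for rhesus AMHR2. Unlike in the baboon, rhesus AMH and AMHR2 were not among the 3 genes closest to each other. For INHBA, MFAP4 came first in the baboon (0.986) and OGN in the rhesus monkey (0.953). FST was left out of this ranking because it had under 100 UMIs in each species.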

How the data were processed

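The testis of 2 baboons and 2 rhesus monkeys was profiled by single-cell sequencing with 10x Genomics 3′ chemistry in 6 libraries. The deposited files hold whole-number UMI counts per gene and barcode, which the authors made with Cell Ranger 3.1.0 against Panubis1.0 (baboon) or Mmul_10 (rhesus), with all barcodes kept and without normalization. Cells were recalled from these counts in Python 3.11.15 by a UMI cutoff (percentile 99 of the top 5000 barcodes, divided by 10) plus a comparison with free RNA (barcodes ranked 45001 to 90000, at least 500 UMIs, adjusted p at most 0.01), with at least 200 genes. Doublets were marked at a rate set by the number of cells (5.45% to 8.94% per library) and kept, and leaving them out was an alternative. Their scores used all genes, the members included. The doublet caller's automatic threshold, which found 0 in library 1A and 1 in library 1B, was not used. The study's filter on mitochondrial reads could not be applied here. Each library was normalized with sctransform 0.4.2 and integrated and clustered in Seurat 5.3.0 (3000 features without the members, 30 components, resolution 0.5). Clusters were named where 3 or more markers were detected, the marker score reached 0.4 and no other list had more markers among the top 10 genes. The members, marker lists and pathway list were chosen with earlier results of these data known. Named genes are the 10 members, the pathway genes called in the Sertoli-like or germ-like contrast (up to 4 per direction), and, for members with at least 100 UMIs, the 3 genes of most similar pattern.

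UMIs were summed per animal and class (at least 20 cells in each animal) and tested over all genes (12449 for the baboon, 10284 for the rhesus monkey) with edgeR 4.0.16's quasi-likelihood test with TMM normalization, filterByExpr and Benjamini-Hochberg adjustment at 0.05. Each class was compared with the unweighted mean of the others. The same animal gives a sum in every class, and sums of 1 animal deviated together (r of 0.229 to 0.760 over 15 baboon pairs of classes, and 0.111 to 0.546 over 21 rhesus pairs), so the animal pairs the sums. The fit with the animal as a block is given beside a result where it changed the call. The edgeR fit was tested on simulated data. Thinning to 1000 UMIs left out shallower cells (for Sertoli-like cells, 1600 baboon and 1101 rhesus cells). Intervals are exact Clopper-Pearson intervals at 95% and cover counting error only. Alternatives were other cell and doublet calls, resolution 0.8, class per cell, DESeq2 1.42.0 or its size factors, no filter, libraries as samples, the block, each library left out and a pooled contrast. The pooled contrast had 1 sum of the class and 1 sum of all other cells per animal, so it rests on fewer sums than the main fit.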

Additional observations from a re-analysis of the deposited data

How the results depend on the processing

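AMH, AMHR2, INHA and INHBB were called higher in rhesus Sertoli-like cells under every alternative with a test, and in baboon Sertoli-like cells under every one except against all other cells pooled, where 2 (AMHR2 and INHBB) were called higher and FST lower. Over all genes, that baboon contrast called 48 of 17234 higher and 861 lower, beside 1020 and 857 of 12449 in the main fit. Of 13 alternatives with a test, 4 called INHBA lower in baboon Sertoli-like cells and 3 called FST lower there. For the member differences called in the main fit, 235 log2 values were recomputed. Of these, 212 kept their side of the threshold and direction or stayed within the spread, 12 lost their call and 11 moved, and none changed sign. Differences not called in the main fit could change sign. Over the alternatives with a test, INHBB in rhesus germ-like cells ran from -1.80 to 1.52 and ACVR2A in baboon Sertoli-like cells from -0.75 to 1.41. The germ-like count in the baboon (4) was 7 at resolution 0.8 (3 higher and 4 lower) and 1 to 4 with a library left out, with the 1 seen without library 1A. With a class per cell, 3 baboon members were called higher and 3 lower, and against all other cells pooled 1 (FST) higher and 5 lower. Over all genes these settings called 4094 of 11556 and 4642 of 17414. Resolution 0.8 called 5438 of 12647 and the main fit 4181 of 12449, and the share was smaller without library 1A. The germ-like count in the rhesus monkey (2) was 6 with a class per cell (2 higher and 4 lower) and 7 against all other cells pooled (1 higher and 6 lower). With each library as a sample it was 1, which was ACVR1 called lower, while FST and ACVR2A had no test in that setting. Over all genes these settings called 3267 of 8447, 3776 of 13159 and 3865 of 7685. With a library left out the rhesus count was 0 to 2, with the 0 seen without library 2B. The share of all genes called was also smaller without library 2B than in the main fit. The stroma-like count in the baboon (1) was 2 with the animal as a replicate block, 5 with marked doublets left out (INHBA higher and 4 lower) and 2 against all other cells pooled. The block and leaving doublets out also called larger shares of all genes than the main fit, both in total and lower. The pooled contrast called a smaller share in total. The stroma-like count in the rhesus monkey (2) was 0 against all other cells pooled, where edgeR called 0 of 12818 genes and 2663 had an unadjusted p under 0.05. The cause of these shifts was not tested. The block changed no call of a member beyond those given above. DESeq2 called 1171 genes higher and 2495 lower in baboon Sertoli-like cells, beside 1020 and 857 in edgeR, and 756 and 972 beside 802 and 373 in rhesus Sertoli-like cells, 524 and 580 beside 555 and 121 in rhesus stroma-like cells, and 1294 and 1021 beside 1058 and 349 in baboon stroma-like cells. Its median over all genes lay lower than edgeR's, at -0.10 beside 0.06 (baboon Sertoli-like), -0.03 beside 0.14 (rhesus Sertoli-like) and -0.06 beside 0.15 (rhesus stroma-like). Over all alternatives the genes called ran from 909 to 3666 (main 1877) in baboon and up to 2215 (main 1175) in rhesus Sertoli-like cells, up to 2999 (main 1407) in baboon and from 0 to 1771 (main 676) in rhesus stroma-like cells, and up to 6364 (main 4181) in baboon germ-like cells. Thinning to 500 UMIs moved 17 of 20 shares. Fewer UMIs per cell lower such shares in themselves and let shallower cells in, so this count does not measure how stable they are. Giving unnamed clusters the name of their best list was an alternative chosen after seeing the data. Leaving out the single-library animal leaves 1 animal, and so a value with no test. The limits are 2 animals per species, rebuilt cell names, free RNA, and few UMIs of FST (90 baboon, 73 rhesus) and of ACVR2A and ACVR2B in the rhesus monkey (312 and 229).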

Other observations

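In 58 rhesus cells of an epithelial-like cluster led by LCN2, PTGDS, ITLN1 and KRT19, which was too small in 1 animal to test, AMH had 60 UMIs in the 4 cells of rhesus 1 and 7 UMIs in the 54 cells of rhesus 2. FST was found on 1 UMI in 10 glia-like cells of rhesus 2.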
